A study of Mus musculus with 8 samples.

Results

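Mitochondrially encoded messenger RNAs are the transcripts of the protein-coding genes on mitochondrial DNA, the small circular genome inside mitochondria. They were taken here as all rows of the deposited gene table on chromosome M with the type protein coding. This gave 13 of 37417 genes, and 7 of the 13 passed the filter on low counts: mt-Nd1, mt-Nd2, mt-Nd4, mt-Nd5 and mt-Nd6, which encode subunits of respiratory complex I, mt-Cytb, which encodes cytochrome b of complex III, and mt-Co1, which encodes the catalytic subunit of complex IV. RNA came from epididymal adipose tissue, the fat pad along the epididymis, of male C57Bl/6 mice fed chow. The wild-type group (4 mice, libraries WT1 to WT4) is labelled WT, with no statement on whether these mice carried a floxed allele or Cre. The Atg3 knockout group (4 mice, libraries KO1 to KO4) is labelled Adiponectin-Cre ERT2-Atg3 flox/flox: a Cre recombinase that tamoxifen activates, driven by the adipocyte promoter of adiponectin, together with floxed Atg3, the gene of an enzyme that attaches LC3-family proteins to autophagosome membranes. Both groups received tamoxifen. The sources used here give neither the age of the mice nor the time since tamoxifen. The promoter limits the deletion to adipocytes, in a tissue that also holds vessels, immune cells and stroma.

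Mitochondrial DNA is transcribed from both of its strands into long precursors that are cut into individual RNAs, mostly at the tRNAs that lie between them. All of the mRNAs except mt-Nd6 come from one precursor, here called the heavy-strand transcript, and mt-Nd6 comes from the opposite, light-strand transcript. Their products join many subunits encoded in the nucleus to form complexes I, III and IV and the ATP synthase, and whole mitochondria can be removed by autophagy.

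The last bases of the 7 counted gene models are shown because the libraries were made from RNA captured through its poly(A) tail, which for some mitochondrial mRNAs also completes the stop codon. Capitals mark the stop codon, or the lone T that the tail completes to one. The mRNAs of mt-Co1, mt-Nd5 and mt-Nd6 are known to run on past their stop codons, so for these the tail does not follow the printed bases directly. Sequences are those of the GENCODE M21 transcripts on build mm10, with the strand in brackets, and each gene lies whole, without introns, on chromosome M.
mt-Nd1, chrM:3684-3707 (+): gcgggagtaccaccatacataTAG
mt-Nd2, chrM:4928-4951 (+): ctagccccccaactaattaccTAG
mt-Co1, chrM:6849-6872 (+): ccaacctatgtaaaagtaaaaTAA
mt-Nd4, chrM:11521-11544 (+): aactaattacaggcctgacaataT
mt-Nd5, chrM:13542-13565 (+): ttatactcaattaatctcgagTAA
mt-Nd6, chrM:13552-13575 (-): attatcgagattactcgagatTAA
mt-Cytb, chrM:15265-15288 (+): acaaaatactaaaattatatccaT
Complete stop codons end the models of 5 of the 7, and mt-Nd4 and mt-Cytb end in the lone T. The models of mt-Nd1 and mt-Nd2 overlap the tRNA genes mt-Ti (from base 3706) and mt-Tw (from base 4950) on the same strand. A cut at the start of these tRNAs would leave only the T of the printed TAG for the tail to complete. The ends of the mRNAs were not measured here. The models of mt-Nd5 and mt-Nd6 face each other and share their last 14 bases on opposite strands. In human cells the ND6 mRNA is known to carry little or no tail.

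Of the other 6 genes, 1 had any reads. mt-Co2 and mt-Co3 (complex IV), mt-Atp6 and mt-Atp8 (ATP synthase) and mt-Nd4l (complex I) are listed at 0 in all 8 libraries, and mt-Nd3 (complex I) at 0 to 6 reads. Nuclear chromosomes hold copies of mitochondrial DNA, so the windows of read length were compared: every 50-base window of each gene was looked for, on both strands, among the GENCODE transcript models outside chromosome M. Of the windows of mt-Co2, 100% occur in a nuclear model, as do 99.9% of those of mt-Co3, 99.5% of mt-Atp6, 98.8% of mt-Nd4l and 98.0% of mt-Nd3. For mt-Atp8 no model holds a window (0 of 155), and the gene lies between mt-Co2 and mt-Atp6, whose copies Gm28661 and Gm10925 are neighbours on chromosome 1. Among counted genes the share was 62.2% in mt-Nd4 and 51.1% in mt-Co1, 8.19% in mt-Nd2, 7.61% in mt-Nd5, and 0 of 908 windows in mt-Nd1, 0 of 470 in mt-Nd6 and 0 of 1095 in mt-Cytb. The sources used here do not say how reads matching at more than 1 place were treated, and the part of such reads in the counts was not tested. The nuclear genome sequence itself was not used, so these shares are minimum values.

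**Figure D1:**
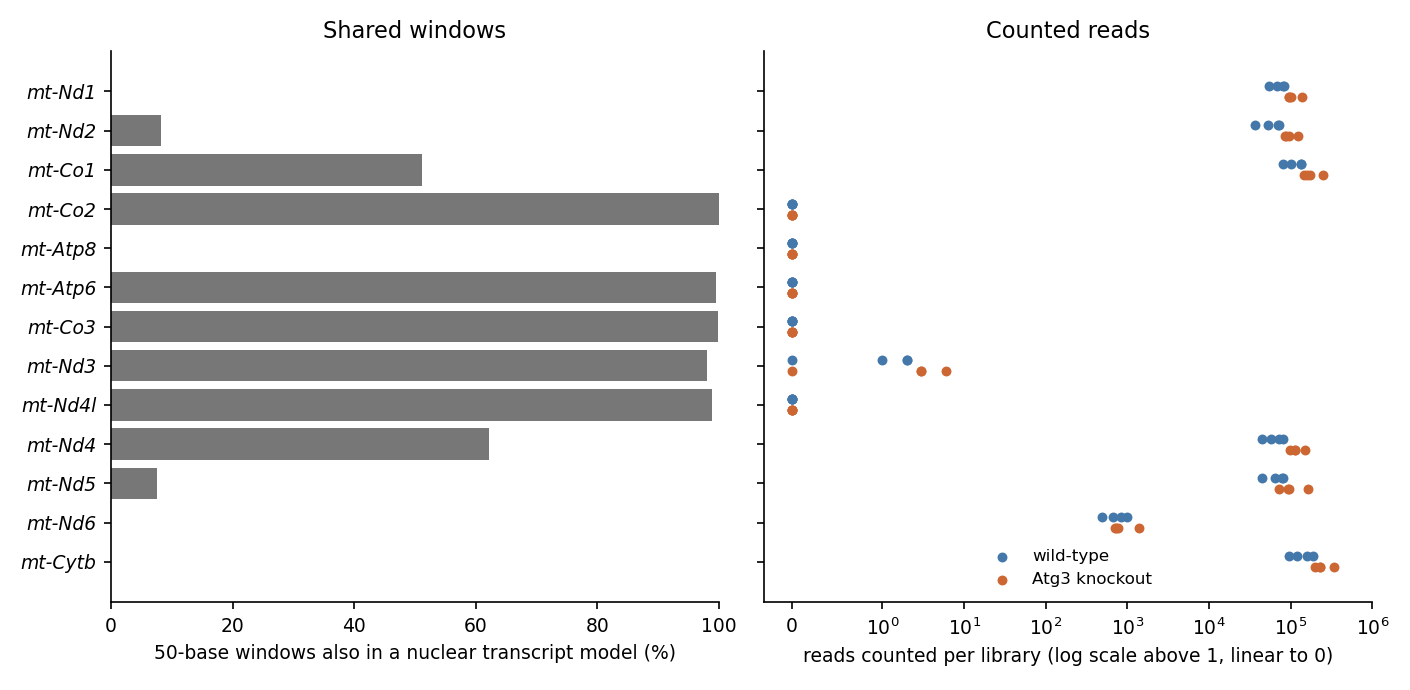
For the 13 protein-coding genes of chromosome M, in genome order, the left panel plots the percentage of 50-base windows that also occur in a nuclear transcript model, and the right panel the reads counted in each of 4 wild-type and 4 Atg3 knockout libraries (points). The 5 genes with at least 98.0% of windows shared, and mt-Atp8, lie at 0 to 6 reads, and the 7 counted genes at 489 or more.

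A window of mt-Co2 and its copy in the pseudogene Gm28661 on chromosome 1 show what such a read would look like; both are written in the direction of the mt-Co2 mRNA and are identical. In mt-Nd4 the shared stretch covers bases 1 to 876 of 1378 and stops where the model of its copy Gm28439 ends; capitals mark the shared side of that border.
mt-Co2, chrM:7313-7362 (+): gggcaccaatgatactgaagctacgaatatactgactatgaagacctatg
Gm28661, chr1:24615216-24615265 (-): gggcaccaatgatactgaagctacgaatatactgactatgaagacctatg
mt-Nd4, chrM:11013-11072 (+): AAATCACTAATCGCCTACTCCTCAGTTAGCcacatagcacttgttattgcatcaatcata
Of the nuclear copies, 6 are rows of the deposited table. Gm13341, a copy of mt-Co2 on chromosome 2, had 461, 678, 595 and 652 reads in WT1 to WT4 and 774, 979, 928 and 1252 in KO1 to KO4. Gm13340, a copy of mt-Co1 on the same chromosome, had 28 to 119 reads, Gm10222, the copy of mt-Nd4l, had 0 in all 8 libraries, and the other 3 (Gm13339, Gm11512 and Gm11407) had at most 12.

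Library totals ran from 10986375 to 17128811 counts in wild-type and from 12952190 to 21688464 in knockout libraries. Atg3 itself held 44.5 to 53.6 CPM (counts per 1e6 counts, scaled by TMM) in wild-type and 27.8 to 32.2 CPM in knockout libraries (log2 fold change -0.73, edgeR adjusted p = 0.0168), so no library goes against its label. KO2 and KO3 stood apart by markers of duct epithelium, of which 17 summed to 686 and 704 CPM there, against 87.9 and 90.6 CPM in KO1 and KO4 and 39.3 to 54.6 CPM in wild-type libraries. The adipocyte markers Adipoq, Plin1, Lep and 7 others summed to between 27858 and 39872 CPM and were detected in every library.

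The 7 counted mRNAs together took 3.24, 3.46, 4.87 and 3.001% of all counts in WT1 to WT4 and 6.02, 5.98, 4.96 and 5.34% in KO1 to KO4. The mean share was 3.64 ± 0.839% in wild-type and 5.58 ± 0.516% in knockout fat (SD, n = 4), 1.53 times as large. All 4 knockout libraries lay above all wild-type libraries, but WT3 and KO3 lay close, with 95% Wilson intervals, which cover counting error only, of 4.86 to 4.88% and 4.95 to 4.97%. With the 50 most abundant nuclear genes left out of the total the groups overlapped (6.07% in the highest wild-type and 5.89% in the lowest knockout library). The share is a sum over the chosen genes and is given without a test, and in tissue RNA more cells of a kind and more RNA per cell cannot be told apart.

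**Figure D2:**
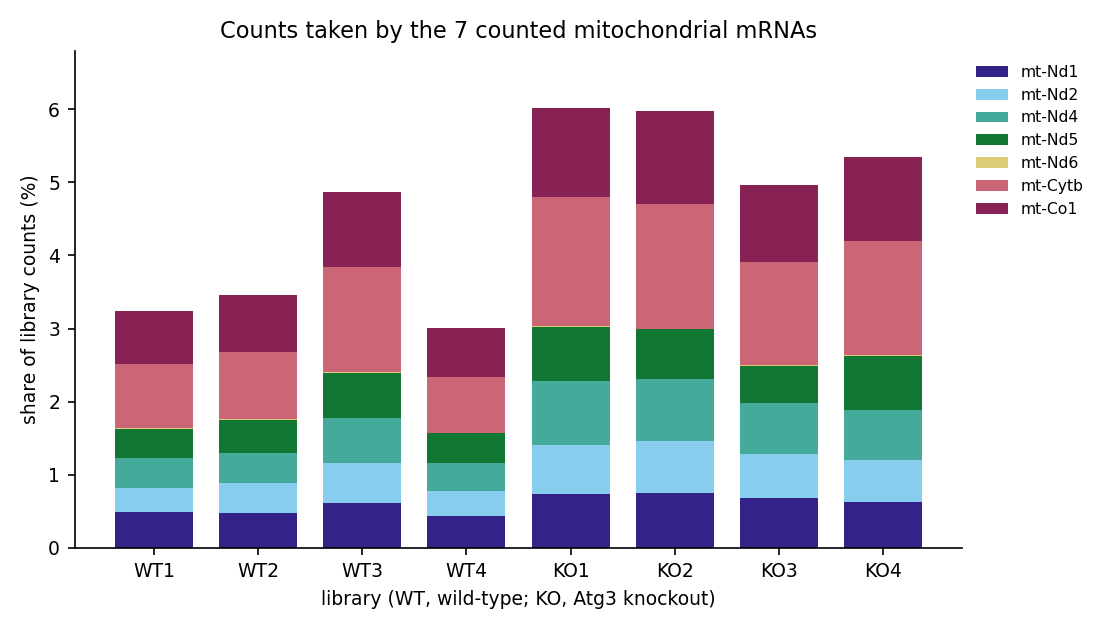
Stacked bars give, for each library, the percentage of all counted reads that fell on each of the 7 counted mitochondrial mRNAs. Bars reach 3.001 to 4.87% in the 4 wild-type libraries (WT) and 4.96 to 6.02% in the 4 Atg3 knockout libraries (KO).

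Gene by gene, all 7 mRNAs had a positive log2 fold change (log2FC, knockout against wild-type), with a median of 0.53, against -0.01 over all 14800 genes tested, of which 47.6% were positive. None passed: 0 of 7 reached an adjusted p of 0.05 with edgeR's quasi-likelihood test, where 0.405% of all tested genes did (0.277% higher in the knockout and 0.128% lower). At an unadjusted p under 0.05 there were 5 of 7, all higher in the knockout, against 8.52% of all tested genes on that side. These 5 are all heavy-strand mRNAs, whose levels moved together (r of at least 0.874 over the libraries), so they are not independent results. On the TMM scale the groups overlapped for every one of the 7, so 0 of 7 had all knockout libraries above all wild-type ones, against 4.32% of tested genes. As a percentage of library counts the highest wild-type value lay below the lowest knockout value for mt-Nd1 (0.616 and 0.630%) and mt-Nd2 (0.544 and 0.568%). The same held for mt-Co1 (1.03 and 1.05%) and mt-Nd4 (0.620 and 0.684%), whereas mt-Nd5, mt-Nd6 and mt-Cytb overlapped. The share of all genes without overlap on that scale was not computed. DESeq2 called 5 of the 7 (mt-Nd1, mt-Nd2, mt-Nd4, mt-Co1 and mt-Cytb), in a fit that called 813 genes in all against edgeR's 60.

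Levels below are given in the order of the library numbers. Among the complex I genes, mt-Nd4, part of the proton-pumping membrane arm, had the largest log2FC of the 7; in CPM the difference of the means was larger for mt-Cytb and mt-Co1. Its level was 3862, 4160, 6623 and 3774 CPM in WT1 to WT4 and 8710, 8415, 6616 and 7125 CPM in KO1 to KO4. WT3 stood far above the other 3 and just above KO3, and the remaining libraries kept apart by genotype. Means were 4604 ± 1356 and 7717 ± 1006 CPM (SD, n = 4), 1.68-fold, with a log2FC of 0.74 (SE 0.21, edgeR adjusted p = 0.150, and 0.00565 to 0.502 over the alternatives).

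For mt-Nd2, another membrane-arm subunit, wild-type libraries held 3139, 4131, 5807 and 3467 CPM and knockout libraries 6717, 7095, 5803 and 5920 CPM. Here, too, only WT3 reached the knockout range. The log2FC was 0.63 (SE 0.20), or 1.54-fold, with edgeR's adjusted p at 0.187. mt-Nd5, the largest membrane-arm subunit, held 3778, 4565, 6564 and 4199 CPM in the wild-type group and 7408, 6798, 4858 and 7807 CPM in knockout libraries. KO3 lay low for this gene, below WT3 and near WT2, and the log2FC of 0.49 (SE 0.22) had an edgeR adjusted p of 0.311. With duct epithelium markers as a covariate it was 0.95 (adjusted p = 0.468). mt-Nd1, which lies where the membrane arm meets the peripheral arm, held 4628, 4800, 6576 and 4464 CPM in the wild-type group and 7305, 7482, 6492 and 6567 CPM in knockout libraries. WT3 lay among the knockout libraries. The log2FC was 0.44 (SE 0.16), or 1.36-fold, with edgeR's adjusted p at 0.225.

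mt-Nd6, the complex I subunit encoded on the light strand, was the exception in level and in difference. Its level was 42.1, 58.7, 68.4 and 43.3 CPM in WT1 to WT4, and 54.9, 52.0, 52.0 and 66.9 CPM in KO1 to KO4, from 489 to 1392 reads each. The genotypes were interspersed, and the highest library was wild-type. The log2FC was 0.09 (SE 0.17, edgeR adjusted p = 0.833), and its sign changed without WT1 (-0.0043) or KO4 (-0.0023).

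mt-Cytb, the only subunit of complex III encoded in mitochondria, had the highest count of the 7 in every library. It held 8267, 9236, 15427 and 7801 CPM in the wild-type group and 17677, 17076, 13477 and 16209 CPM in knockout libraries. WT3 exceeded KO3 and no other knockout library. Means of 10183 ± 3547 and 16110 ± 1855 CPM (SD, n = 4) gave a log2FC of 0.66 (SE 0.24), or 1.58-fold, with edgeR's adjusted p at 0.226. For mt-Co1, whose product binds oxygen in complex IV, wild-type libraries held 6912, 7927, 10963 and 6671 CPM and knockout libraries 12125, 12737, 10016 and 11981 CPM. The same library of each genotype made the overlap, and the log2FC was 0.53 (SE 0.19), or 1.44-fold, with edgeR's adjusted p at 0.227.

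**Figure D3:**
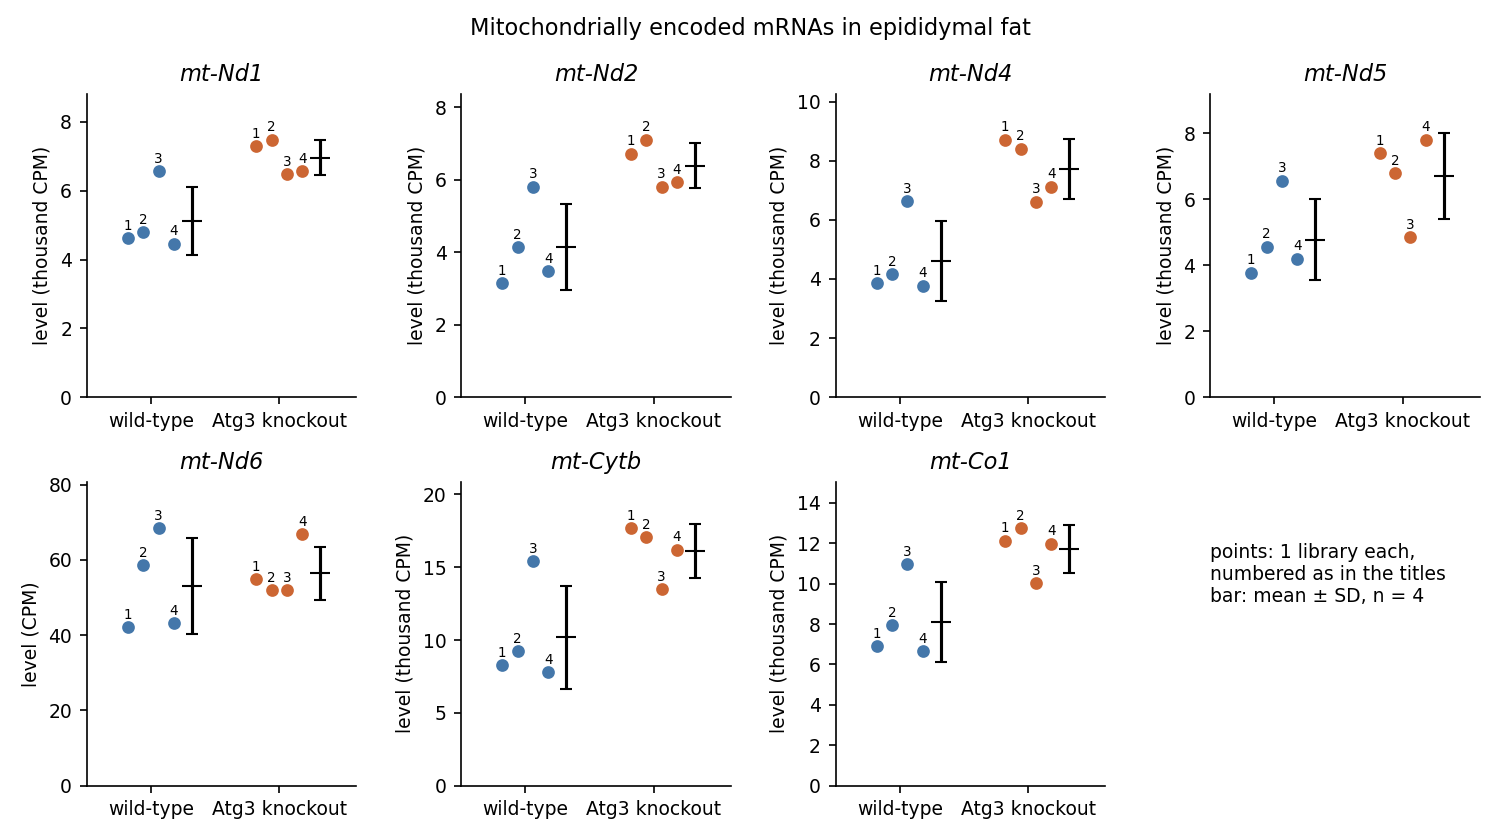
Each panel plots the level of 1 mitochondrial mRNA in units of 1000 CPM (mt-Nd6 in CPM) in the 4 wild-type and 4 Atg3 knockout libraries, as points numbered by library, with mean ± SD. WT3 reaches the knockout range in every panel, and WT3 is the highest of all 8 points only for mt-Nd6.

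WT3 set much of the spread. The coefficient of variation of CPM among wild-type libraries was 19.2% for mt-Nd1 and 34.8% for mt-Cytb, the lowest and highest of the 7, and 7.25 to 19.5% among knockout libraries. Without that library the median log2FC of the 6 heavy-strand mRNAs was 0.77 in place of 0.58, and mt-Nd4 came to 0.98 (edgeR adjusted p = 0.0677), still with 0 of 7 called. The same library had the highest sum of adipocyte markers (39872 CPM, against 32587 to 33892 in the other wild-type libraries) and of striated muscle markers among wild-type libraries (48.1 against 23.8 to 27.9 CPM, with 49.1 CPM in KO4). It also had the highest nuclear complex I sum (3039 CPM). The part of these in its mitochondrial levels was not tested.

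Without KO2 and KO3, which held the most duct markers, the median log2FC of the 6 heavy-strand mRNAs was 0.65, against 0.58 with all libraries. With the mean of 11 duct markers as a covariate it was 0.83. The covariate raised the SE from 0.16 to 0.28 for mt-Nd1 and from 0.21 to 0.36 for mt-Nd4. Each of these edgeR fits called 0 of 7, and 1294 and 1370 genes reached an unadjusted p of 0.05. KO1 and KO4 also exceeded every wild-type library in summed duct markers (87.9 and 90.6 CPM against 39.3 to 54.6 CPM). Of 11 tested duct markers 0 passed edgeR's test, DESeq2 called 10, and log2FC ran from 1.33 to 8.35. At an unadjusted p under 0.05 in edgeR all 11 were higher, and 8 were without overlap, against 8.52% and 4.32% of all tested genes. Duct markers and genotype thus go together in these libraries, and the part of duct tissue in the difference was not tested. Other cell markers differed between the genotypes in sum. Endothelial markers (8 genes) summed to 1698 to 1924 CPM in wild-type and 1369 to 1569 CPM in knockout libraries, without overlap. Adipocyte markers (10 genes) summed to 32587 to 39872 and 27858 to 32426 CPM, without overlap by a narrow margin. Without overlap on the lower side were 5 of 8 endothelial and 1 of 10 adipocyte genes, against 4.54% of all tested genes. All 8 endothelial and 9 of 10 adipocyte genes had negative log2FC. In these lists 0 of 8 and 0 of 10 genes passed edgeR's test. At an unadjusted p under 0.05, 5 and 2 were lower, against 7.66% of all tested genes on that side. DESeq2 called 5 (Pecam1 among them) and 1 (Retn), in a fit that called 813 of 14800 genes. The part of endothelial and adipocyte markers in the mitochondrial values was not tested. Macrophage (1670 to 2311 against 1806 to 2405 CPM), mesothelial (77.4 to 291 against 127 to 369 CPM), preadipocyte and fibroblast (3197 to 4476 against 2650 to 3761 CPM), lymphocyte (119 to 440 against 148 to 272 CPM), striated muscle (23.8 to 48.1 against 20.1 to 49.1 CPM) and liver markers (2932 to 3982 against 2611 to 3147 CPM, nearly all Trf) overlapped between wild-type and knockout libraries. Of 5 tested striated muscle markers 0 passed edgeR's test, and 3 had positive and 2 negative log2FC, from -0.65 (Acta1) to 3.55 (Tnnt2). In edgeR 2 of these 5 were higher at an unadjusted p under 0.05, against 8.52% of all tested genes, and DESeq2 called Tnnt2. Epididymal secretory and prostate markers, none of which passed the filter on low counts, summed to 72.1 and 44.4 CPM in KO1 and KO3 and to at most 5.09 CPM elsewhere. Markers of brown and beige fat, which is rich in mitochondria, summed to 31.0 to 38.8 CPM in wild-type and 23.97 to 35.4 CPM in knockout libraries, with overlap. Of 6 tested members 0 passed edgeR's test, 2 had positive and 4 negative log2FC (median -0.21), and 1, Cpt1b, was at an unadjusted p under 0.05 (log2FC -0.60, adjusted p = 0.261). Ppargc1a stood at 10.6 ± 3.36 CPM in the wild-type group and 10.1 ± 3.87 CPM in knockout fat (SD, n = 4). Ucp1, the defining gene of brown fat, was near 0 in both groups, at 0.241 ± 0.194 and 0.203 ± 0.115 CPM (SD, n = 4).

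The 6 heavy-strand mRNAs moved together from library to library. Pearson's r of log2 CPM over the 8 libraries ran from 0.874 to 0.995 for their 15 pairs, with a median of 0.978, and from 0.54 to 0.73 between mt-Nd6 and each of them. These values describe libraries that share their scaling and the genotype difference. Within the sum of the 7, mt-Cytb took 25.6 to 29.7% of reads, mt-Co1 20.2 to 22.7%, mt-Nd1 11.8 to 15.1%, mt-Nd2 10.3 to 12.3% and mt-Nd5 10.3 to 14.02%, with overlapping genotypes. mt-Nd4 took 11.9 to 12.7% in wild-type and 12.8 to 14.5% in knockout libraries, and mt-Nd6 0.131 to 0.168% and 0.0872 to 0.120%, both without overlap between genotypes and given without a test.

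The balance between the strands was the 1 ratio tested, in a plan made with earlier results of these data known. The ratio restates, within each library, the difference between mt-Nd6 (log2FC 0.09) and the heavy-strand mRNAs (median 0.58), so it is no separate result. For 1000 heavy-strand reads there were 1.38, 1.68, 1.32 and 1.42 mt-Nd6 reads in WT1 to WT4 and 0.917, 0.873, 1.10 and 1.20 in KO1 to KO4. All knockout libraries lay below all wild-type libraries, WT3 included. The mean log2 ratio was -9.44 ± 0.156 in wild-type and -9.95 ± 0.218 in knockout fat (SD, n = 4), a difference of -0.51, or 1.42-fold fewer mt-Nd6 reads per heavy-strand read (two-sided exact permutation p = 0.0286, the smallest that 70 assignments can give). The sources used here do not say whether strand entered the counting, so reads from both strands over mt-Nd6 cannot be told apart. The ratio also sets mt-Nd6, whose human counterpart carries little or no tail, against mRNAs captured by their tails. The part of that capture in the difference was not tested. The heavy-strand rRNAs mt-Rnr1 and mt-Rnr2 had log2FC of 0.11 and 0.07, near the 0.09 of mt-Nd6, so the ratio does not describe all heavy-strand RNAs.

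Other RNAs of the same genome were read at low levels in these poly(A) libraries. The ribosomal RNAs mt-Rnr1 and mt-Rnr2, made from the heavy strand upstream of mt-Nd1, had log2FC of 0.11 (SE 0.16, edgeR adjusted p = 0.777) and 0.07 (SE 0.18, adjusted p = 0.890), and summed to 498, 834, 597 and 522 CPM in the wild-type group and 596, 740, 668 and 596 CPM in knockout libraries. Reads of the 6 mRNAs per rRNA read were 62.1 ± 18.7 in wild-type and 86.3 ± 13.2 in knockout fat (SD, n = 4), with overlap, since WT3 had 87.0. Of the 22 tRNA genes, 4 averaged at least 1 CPM in both groups: mt-Ti (log2FC 0.52), mt-Tl1 (0.58), mt-Tm (0.65) and mt-Tw (0.80), with edgeR's adjusted p from 0.178 to 0.428. Only mt-Tw was without overlap, by a narrow margin (at most 4.06 CPM in wild-type, at least 4.09 CPM in knockout libraries). Their models are 67 to 75 bases long beside or between longer RNAs, so reads of 50 bases may come from those. All light-strand tRNA genes together had 3 to 12 reads per library.

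Levels between genes were compared per length. On the deposited FPKM scale (reads per length and library total), the wild-type order was mt-Cytb (8755 ± 2636), mt-Nd1 (5284 ± 797), mt-Co1 (5184 ± 1032), mt-Nd2 (3922 ± 939), mt-Nd4 (3291 ± 816), mt-Nd5 (2580 ± 541) and mt-Nd6 (101 ± 20.1; SD, n = 4). Wild-type ranges of neighbours in this order overlapped, apart from mt-Cytb (6728 to 12625) above mt-Nd1 (4603 to 6433) and mt-Nd5 (2192 to 3369) above mt-Nd6 (82.3 to 123). In knockout fat the order was the same with mt-Co1 (7593 ± 631) and mt-Nd1 (7297 ± 568) exchanged, and these again overlapped. These ranges run across libraries, whereas the genes were measured in the same ones. Within every library mt-Cytb was highest, and mt-Co1, mt-Nd2, mt-Nd4, mt-Nd5 and mt-Nd6 kept this order. Only mt-Nd1 and mt-Co1 changed places from library to library. Scaled instead to 1000 windows that no nuclear model shares, the wild-type levels were 11105 ± 2699 CPM for mt-Co1, 9299 ± 3239 for mt-Cytb and 9172 ± 2701 for mt-Nd4, then 5636 ± 1082 for mt-Nd1, 4555 ± 1308 for mt-Nd2, 2913 ± 753 for mt-Nd5 and 113 ± 27.0 for mt-Nd6 (SD, n = 4). On this scale mt-Nd4 moved from the fifth to the third place and mt-Co1 from the third to the first. These values are too high for mt-Co1 and mt-Nd4 if reads in shared windows were counted.

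Nuclear subunits of the same complexes had medians near that of all genes. Of 36 nuclear complex I subunits tested, 0 rose and 0 fell with edgeR (1 was at an unadjusted p under 0.05), 25 had positive log2FC, and the median was 0.06. The lowest unadjusted p was that of Ndufab1, an acyl carrier protein (log2FC -0.35, adjusted p = 0.162), followed by the accessory subunits Ndufa13 (0.19, adjusted p = 0.410) and Ndufa6 (0.21, adjusted p = 0.452). Of 9 complex III subunits 0 passed (median -0.01), with Uqcr10 (log2FC 0.14), Uqcrq (0.16) and Cyc1, cytochrome c1 (-0.06), at adjusted p of 0.578 to 0.870. Of 13 complex IV subunits 0 passed (median -0.02), where Cox5a had a log2FC of -0.15 and Cox7a2 -0.14 (adjusted p = 0.509 and 0.532) and the muscle-type Cox7a1 0.47 (adjusted p = 0.474). The 4 genes of complex II, which has no mitochondrially encoded subunit, had a median of -0.04 and 0 passed; Sdhb stood at -0.18, Sdha at -0.07 and Sdhc at 0.05 (adjusted p from 0.427 to 0.836). Over all 14800 genes the median was -0.01. DESeq2 and limma-voom, too, called 0 genes in these 4 lists.

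Setting both genomes against each other within a library gave values without overlap. The counted mitochondrial complex I mRNAs gave 6.36, 7.21, 8.44 and 5.47 CPM per CPM of nuclear complex I subunits in WT1 to WT4 and 11.1, 10.1, 8.59 and 10.0 in KO1 to KO4. For complex III the ratio of mt-Cytb to the nuclear subunits was 9.02 ± 2.32 in wild-type and 14.3 ± 1.37 in knockout fat, and for complex IV that of mt-Co1 was 4.99 ± 0.848 and 7.17 ± 0.609 (SD, n = 4). The lowest knockout ratio lay above the highest wild-type ratio for all 3 complexes, narrowly for complexes I and III, where WT3 and KO3 came closest (11.9 and 12.4 for complex III). The nuclear sums alone differed by less than their SD, 2710 ± 313 and 2802 ± 112 CPM for complex I (SD, n = 4). These ratios are sums over the chosen genes and are given without a test.

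**Figure D4:**
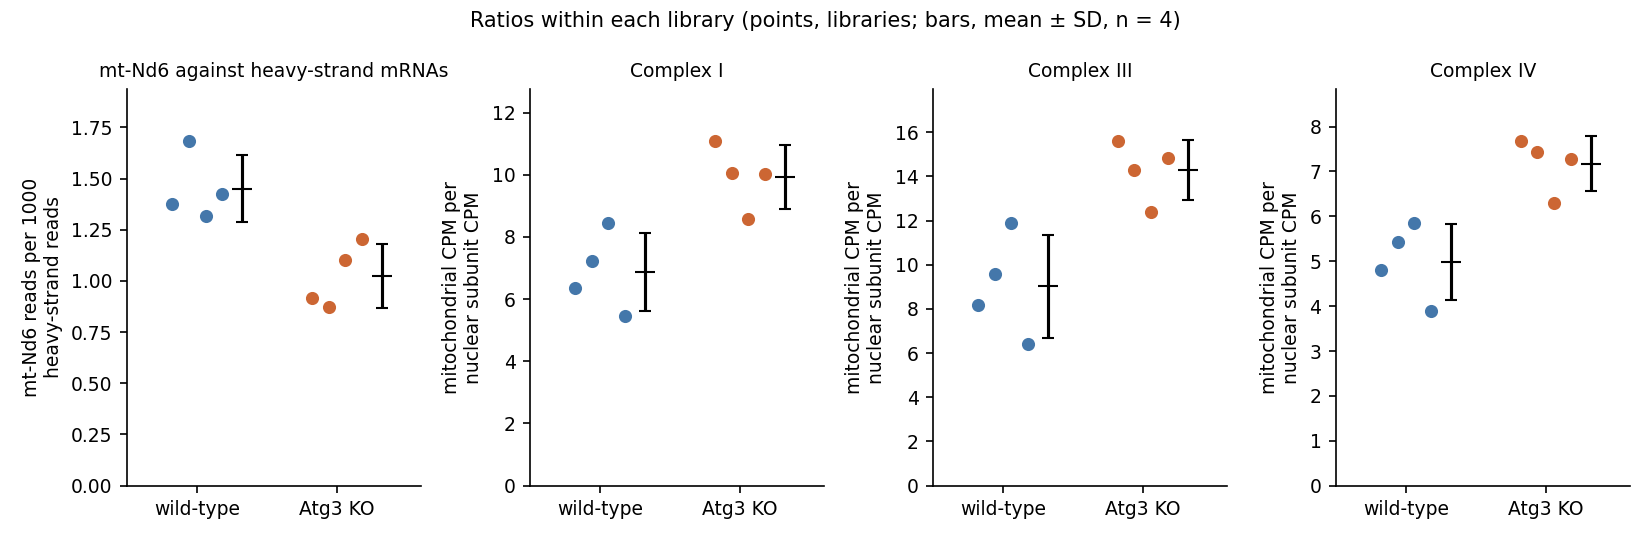
The first panel plots mt-Nd6 reads per 1000 reads of the 6 heavy-strand mRNAs, and the other 3 plot the summed CPM of counted mitochondrial mRNAs over that of nuclear subunits of the same complex, for 4 wild-type and 4 Atg3 knockout libraries (points) with mean ± SD. In each panel the genotypes do not overlap, the knockout lying lower in the first (0.873 to 1.20 against 1.32 to 1.68) and higher in the others.

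Genes that act on mitochondrial DNA and RNA were measured next. In the transcription list, which holds the polymerase Polrmt and the factors Tfam and Tfb2m, 0 of 10 passed (edgeR; 0 at an unadjusted p under 0.05) and the median log2FC was -0.08. The elongation factor Tefm stood at -0.24 (adjusted p = 0.431), and Mterfd2 and Mterfd1 of the termination factor family at 0.20 and -0.22 (adjusted p = 0.422 and 0.439). Of 32 RNA processing and stability genes 0 passed, 26 had negative log2FC and the median was -0.07. At an unadjusted p under 0.05 in edgeR, 4 were higher and 2 lower, against 8.52% and 7.66% of all tested genes. Hsd17b10, a part of the enzyme that cuts tRNA 5′ ends, had 0.29 (adjusted p = 0.184), the rRNA methyltransferase Mrm1 -0.29 (adjusted p = 0.243) and Mto1, which modifies tRNAs, -0.24 (adjusted p = 0.256).

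Among 79 mitochondrial ribosome genes 0 passed and the median log2FC was 0.02. Mrpl45 had 0.41 (adjusted p = 0.121), Mrps18a 0.32 (0.156) and Mrpl33 -0.20 (0.200). Of 24 mitochondrial DNA maintenance genes 0 passed, with a median of -0.04. Abat, which also breaks down GABA, stood at 65.3 ± 21.2 CPM in the wild-type group and 126 ± 38.7 CPM in knockout fat (SD, n = 4; log2FC 0.95, edgeR adjusted p = 0.147), and Suclg2, a succinyl-CoA synthetase subunit, at 0.24 (adjusted p = 0.212). Tymp, thymidine phosphorylase, had a log2FC of 1.33 (edgeR adjusted p = 0.247), from 6.74 and 9.53 CPM in KO2 and KO3, which held the most duct markers. KO1 and KO4 (1.92 and 2.11 CPM) lay within the wild-type range of 1.65 to 2.36 CPM. DESeq2 called Mrpl45 and Abat in these lists, and 0 genes of the transcription and processing lists.

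Regulators of mitochondrial biogenesis had a median log2FC of -0.13, with 0 of 12 passing. Nrip1, a corepressor that restrains oxidative genes in fat, held 151 ± 23.8 CPM in the wild-type group and 98.5 ± 17.2 CPM in knockout fat (SD, n = 4; log2FC -0.62, edgeR adjusted p = 0.119). Gabpa, the DNA-binding subunit of the activator NRF-2, held 60.4 ± 4.21 and 49.2 ± 1.62 CPM (log2FC -0.30, adjusted p = 0.119), and the nuclear receptor Ppard had a log2FC of 0.38 (adjusted p = 0.159). In this list the genotypes did not overlap for 1 gene of 12 on the higher side and 2 on the lower side. Over all tested genes these shares were 4.32% and 4.54%. DESeq2, which called 813 of all 14800 genes, called Nrip1, Gabpa and also Esrrg, named after its call was seen. With edgeR, Esrrg had the highest log2FC of the list (1.65) and Nrip1 the lowest. Of 30 assembly factors for complexes I, III and IV 0 passed and the median was 0.01, with Ndufaf4 at -0.21, Cox15 at -0.20 and Sco2, a copper chaperone, at 0.57 (adjusted p from 0.252 to 0.334). Sco2 stood at 14.3 and 13.6 CPM in KO2 and KO3, at 7.08 and 8.94 CPM in KO1 and KO4 and at 5.58 to 9.82 CPM in wild-type libraries. Of 12 tested mitophagy receptor genes, whose proteins mark mitochondria for autophagy, 0 passed and the median was 0.00; Bnip3 had a log2FC of -0.36, Sqstm1 0.34 and Bnip3l -0.17 (adjusted p = 0.145, 0.159 and 0.294), of which DESeq2 called the first 2.

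**Figure D5:**
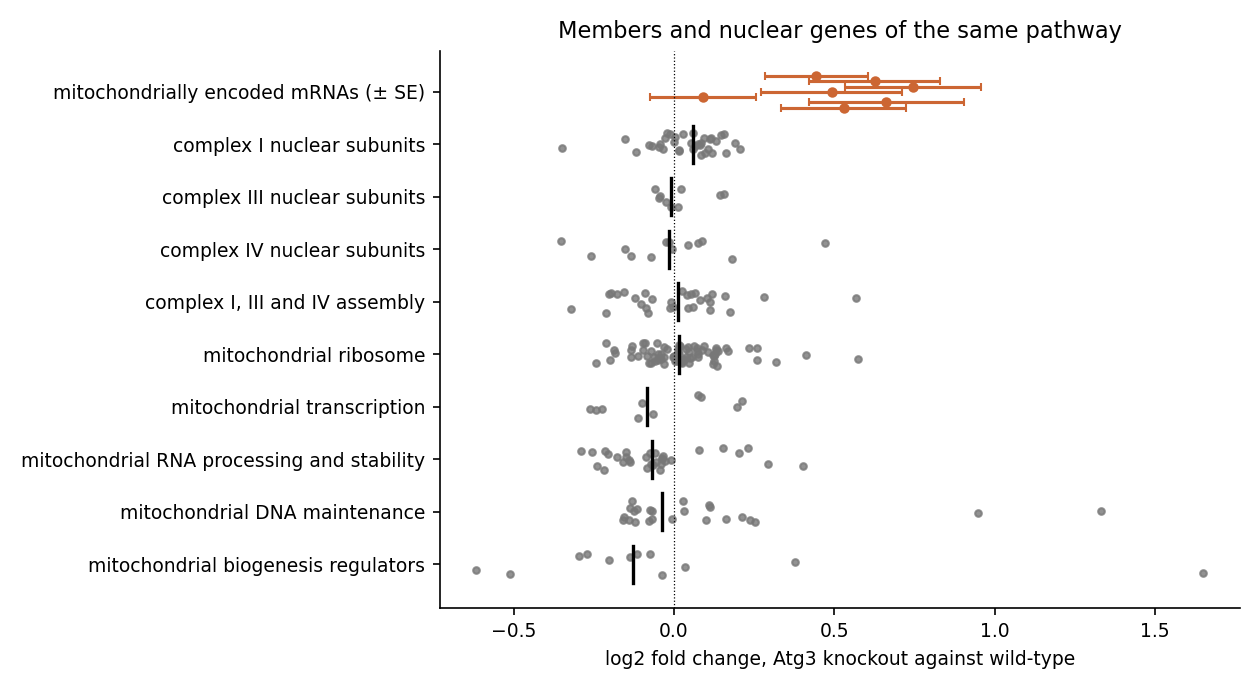
The horizontal axis is the log2 fold change, Atg3 knockout against wild-type, for the 7 counted mitochondrial mRNAs (orange, ± SE, top to bottom mt-Nd1, mt-Nd2, mt-Nd4, mt-Nd5, mt-Nd6, mt-Cytb and mt-Co1) and for tested nuclear genes of 9 lists (grey points, 1 per gene, with the median as a black line). The mitochondrial mRNAs lie from 0.09 to 0.74 and the medians of the lists from -0.13 to 0.06.

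Nuclear genes with the most similar pattern over the libraries were found by Pearson's r between their log2 CPM and the mean log2 CPM of the 7 mRNAs, among 11035 genes with at least 5 CPM. The 6 highest were Vti1b, a SNARE protein of endosomes (r = 0.97), Spryd7 (0.97), Prdx1, a cytosolic peroxiredoxin (0.96), Skp1a, a subunit of SCF ubiquitin ligases (0.96), Mettl9, a methyltransferase (0.96), and Chpt1, which makes phosphatidylcholine (0.95). They are the best of many genes over only 8 libraries that share their scaling, and are given as a description. Vti1b held 69.1, 70.2, 82.4 and 70.4 CPM in the wild-type group and 91.6, 91.9, 81.7 and 90.1 CPM in knockout libraries, with the same WT3 and KO3 in between. None of the 6 passed edgeR's test (adjusted p from 0.148 to 0.368). The 58 nuclear subunits of complexes I, III and IV had r from -0.62 to 0.83, with a median of 0.41.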

How the data were processed

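RNA sequencing counts of 4 wild-type and 4 Atg3 knockout fat samples were analysed. Per the labels' protocols, poly(A) RNA gave stranded libraries read for 50 cycles from 1 end; build mm10, Novoalign 2.8.1 and Picard stand in the submitters' processing notes. The sources used here do not name the counter or annotation. The authors deposited raw read counts and FPKM per gene in 1 table, per the file headers; each of 158499 FPKM values above 0 equals count over length and library total within 0.1%. The table counts gene starts from 0, and 1-based positions are printed; all 37 chromosome M genes match GENCODE M21 on mm10.

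Counts were tested with edgeR 4.0.16 in R 4.3.3 (filterByExpr with a minimum count of 10, leaving 14800 genes; TMM; quasi-likelihood F test without covariate; Benjamini-Hochberg adjustment over all genes, called at 0.05). The standard error was derived from the test. The strand ratio was compared by an exact permutation test (scipy 1.17.1). The script was checked on simulated counts. No 2 libraries of a genotype agreed within sampling noise (lowest chi-square per gene 19.5). The series' design text names 4 mice per genotype, so p-values measure the spread between mice.

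Named genes are the 7 mRNAs, other chromosome M genes averaging at least 1 CPM, the 3 lowest p-values of each pathway list, the most abundant members of marker lists, nuclear copies, and the 6 genes of most similar pattern; Ucp1 was added after its values were seen. Members, lists and alternatives were chosen with earlier results of these data known. Alternatives were scaling by RLE, by upper quartile, by library size or without chromosome M, no filter or 1 CPM in 4 libraries, robust edgeR, DESeq2 1.42.0, limma-voom (limma 3.58.1), a replicate block, a duct marker covariate, and libraries left out.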

Additional observations from a re-analysis of the deposited data

Results flagged for a closer look

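The CPM of mt-Nd1 (6576) and of mt-Nd4 (6623) in WT3 lay so far above the other 3 wild-type libraries that the gap, as a part of the group's range, exceeded Dixon's limit for 4 samples. Of 32 groups of values examined, these 2 passed that limit, and about 1 in 20 does so by chance. The levels of the 6 heavy-strand mRNAs move together, so these are not independent.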

How the results depend on the processing

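With edgeR or limma-voom, 0 of the 7 mRNAs was called in every alternative run, each library left out in turn included (0 to 0), while DESeq2 called 5, the cause of which was not tested. Of 140 log2 fold changes over 20 alternatives, 133 kept direction and side of the threshold, 5 passed with DESeq2, and 2, both of mt-Nd6, reversed: -0.0043 without WT1 and -0.0023 without KO4, in a range up to 0.24 with 1 library left out (without WT3). The log2FC of the 6 heavy-strand mRNAs ran from 0.38 to 0.98. The difference in log2 strand ratio kept its sign and stayed without overlap: it ran from -0.59 to -0.43 with 1 library left out and was -0.46 without KO2 and KO3, but such tests cannot reach 0.05 (smallest p 0.0571 and 0.133). The difference in library share ran from 1.72 to 2.34 percentage points with 1 library left out. Same-numbered libraries did not deviate together (r from -0.25 to 0.18), so the numbers were not taken as pairs; with the replicate block 0 of the 7 and 14 genes in all were called, against 60, and log2FC ran from 0.11 for mt-Nd6 to 0.78 for mt-Nd4. Over all genes the count of calls was 0 to 290 with 1 library left out, 813 with DESeq2, 3 without KO2 and KO3 and 2 with the duct covariate. Depth was no limit for the heavy-strand mRNAs (at least 36503 reads each per library); mt-Nd6 rests on 489 to 1392 reads.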
